A study of Mus musculus with 6 samples.

Results

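Oncofetal genes are switched on in the embryonic liver, are largely silent in the adult organ, and are often found again in liver tumors. The 10 genes described here are *Afp*, *Gpc3*, *Igf2bp1*, *Igf2bp2*, *Igf2bp3*, *Lin28a*, *Lin28b*, *Hmga1*, *Hmga2* and *Sall4*. They were chosen by name, as the rows that carry these symbols in a table of 20856 mouse genes with values. A row was found for 9 of them. *Lin28a* (ENSMUSG00000050966) had none, and the authors' mean normalized count for it over all samples of their comparison was 0. The genes were read in 6 cell lines, each derived from a liver tumor that arose in a C57BL/6 mouse after hydrodynamic delivery of a *Myc* transposon and a Cas9 plasmid. The guide RNA in that plasmid was directed at *Trp53* in 3 lines (*Myc*; sg*Trp53*, called sgp53 in the labels) and at *Kmt2c*, which encodes the histone methyltransferase MLL3, in the other 3 (*Myc*; sg*Kmt2c*, called sgMll3). All 6 lines therefore share the *Myc* transgene, and there is no group with both targeted genes intact and no normal liver. Each line was cultured in serum on collagen until no fibroblasts could be seen, received no treatment, and gave a single library of total RNA.

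The proteins of these genes act at separate points. HMGA1 and HMGA2 bind DNA and shape chromatin, and SALL4 is a transcription factor of stem cells. LIN28A and LIN28B bind the precursors of the let-7 microRNAs and block their maturation, and let-7 in turn represses mRNAs that carry its target site, among them *Hmga2*, *Lin28b* and *Igf2bp1*. IGF2BP1, IGF2BP2 and IGF2BP3 bind mRNAs such as those of *Igf2* and *Myc* and affect their stability, transport and translation. AFP is the main plasma protein of the fetus and the classical serum marker of hepatocellular carcinoma, and GPC3 is a heparan sulfate proteoglycan of the cell surface that is used as a tissue marker of the same cancer.

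The let-7 family and its target sites are shown first, since they join several of these genes. The 8 mature mouse let-7-5p sequences with names from let-7a to let-7i in RefSeq (GRCm38.p6) have the same seed. The seed, bases 2 to 8 from the 5′ end, is in capitals in these examples. The positions are chr13:48538239-48538260 on the minus strand for let-7a, chr13:48536078-48536099 on the minus strand for let-7d and chr10:122985698-122985719 on the minus strand for let-7i.
mmu-let-7a-5p: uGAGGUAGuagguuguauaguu
mmu-let-7d-5p: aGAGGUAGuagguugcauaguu
mmu-let-7i-5p: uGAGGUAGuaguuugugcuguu

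The 7 letters complementary to that seed are CTACCTC. They were counted, on the sense strand only, in the longest 3′ untranslated region that GENCODE lists for each gene. Of the 10 oncofetal genes, 8 held at least 1 match, where 8.81% of all 19915 genes did (15.4% of the 9194 genes with a region of at least 1000 bases). *Hmga2*, *Lin28b* and *Igf2bp1* held 4 each. Only 9 of the 19915 genes, 0.0452%, held 4 or more, and the others were *Hic2*, *Mcf2l*, *Nr6a1*, *Nudt12*, *Ptafr* and *Trim6*, named here after their counts were seen. *Lin28a* held 2 matches, *Igf2bp2*, *Igf2bp3*, *Hmga1* and *Sall4* held 1 each, and *Afp* and *Gpc3* held none. Longer regions offer more places for a match: that of *Igf2bp1* had 6337 bases, that of *Lin28b* 4445 and that of *Hmga2* 3014, against a median of 893 over all genes. The first match in each of 4 members is printed with the bases around it, the match in capitals, and it begins 58 bases after the coding region in *Hmga2*, 36 in *Lin28b*, 1715 in *Igf2bp1* and 548 in *Igf2bp3*.
Hmga2: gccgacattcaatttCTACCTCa
Lin28b: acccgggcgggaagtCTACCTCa
Igf2bp1: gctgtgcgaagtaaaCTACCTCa
Igf2bp3: tgcatttttactcaaCTACCTCa

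Mature microRNAs are not among the values analysed here, so the amount of let-7 in these lines is not known.

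The libraries held 3680068 to 6878625 reads on genes, and every sg*Kmt2c* library was shallower than every sg*Trp53* library. Levels are given in RPKM, the reads per kilobase of a single listed transcript length and scaled to library size, and read counts were worked back from them. *Trp53* lay at 17.2 to 19.4 RPKM in *Myc*; sg*Trp53* cells and at 92.2 to 124 RPKM in *Myc*; sg*Kmt2c* cells, while *Kmt2c* transcript overlapped between the genotypes (18.4 to 24.2 against 9.51 to 25.0 RPKM). sg*Kmt2c* line 1 stood apart before any member was considered. Its correlation across genes with the other 2 lines of its genotype was 0.788 and 0.836, where the remaining pairs of lines within a genotype gave 0.903 to 0.951. It was the lowest of the 6 lines for 35.4% of the 11617 genes tested. Values without it are therefore given for each tested member and for the median of each gene list. The sample labels name sg*Kmt2c* lines 2 and 3 as 2A and 2T1, and they were treated as independent because the methods state that the lines came from different mice.

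Of the 10 genes, 7 passed the filter for testing, which asked for 1 RPKM or more in 3 or more lines. In limma on log2(RPKM + 1), none of the 7 reached an adjusted p-value under 0.05 for the difference of the genotypes, where 0.0516% of all genes tested were higher in *Myc*; sg*Kmt2c* cells and 0.0775% were lower. *Igf2bp3* alone had an unadjusted p-value under 0.05, with 5.34% of all genes tested below that value and lower in sg*Kmt2c* cells. It was also the only tested member whose lines did not overlap between the genotypes, which held for 16.2% of all genes tested. limma voom on the recovered reads likewise called 0 members and left 1 under an unadjusted 0.05. The estimate was below 0 for 5 of the 7, and below 0 for 58.0% of all genes tested. In the other direction stood *Afp* and *Lin28b*.

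The spread among lines of the same genotype was wide. The pooled SD of log2(RPKM + 1) within genotypes exceeded the median of all genes tested (0.368) for all 7 members, and for 5 of them it exceeded that of over 90% of the genes. It was 1.65 for *Afp*, 1.50 for *Igf2bp2*, 1.35 for *Igf2bp1*, 1.21 for *Hmga2* and 1.19 for *Igf2bp3*. *Lin28b* (0.796) and *Hmga1* (0.533) varied less. The levels are therefore given line by line.

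**Figure D1:**
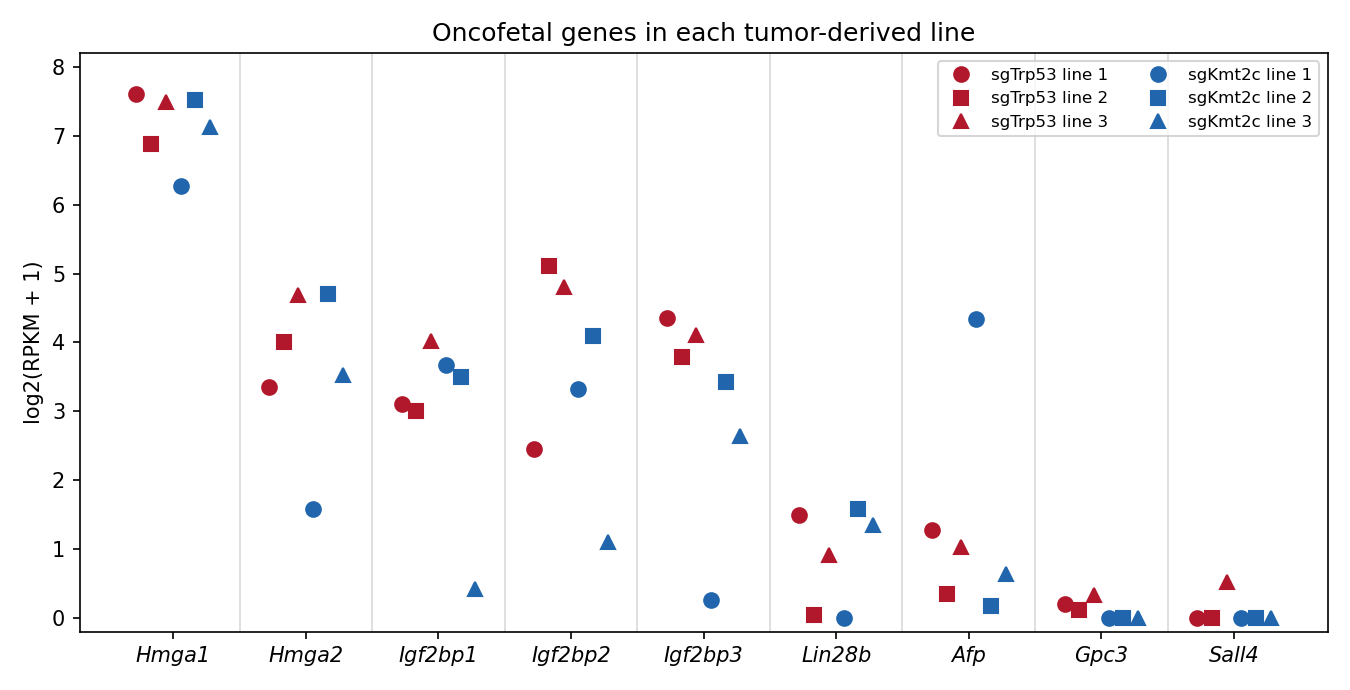
Level of the 9 oncofetal genes with a row in the table, as log2(RPKM + 1), with 1 point per line, red for *Myc*; sg*Trp53* and blue for *Myc*; sg*Kmt2c*, and the shape giving the line number. *Hmga1* is the highest gene in every line, *Gpc3* and *Sall4* are at or near 0 throughout, and the blue circle (sg*Kmt2c* line 1) is lowest for *Hmga1*, *Hmga2*, *Igf2bp3* and *Lin28b* and highest for *Afp*.

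*Hmga1*, at chr17:27556620-27563674 of GRCm38, was the most abundant member and lay at a mean level above that of 97.2% of the genes with values. It stood at 194, 116 and 179 RPKM in sg*Trp53* lines 1, 2 and 3 and at 75.8, 182 and 138 RPKM in sg*Kmt2c* lines 1, 2 and 3. The highest line exceeded the lowest by a ratio of 2.56, the narrowest range among the members, and the genotypes overlapped. The log2 fold change of the sg*Kmt2c* over the sg*Trp53* lines was -0.36 (95% interval -1.24 to 0.53, adjusted p = 0.775 from limma), and without sg*Kmt2c* line 1 it was -0.0035. *AI413582* overlaps *Hmga1* and had at most 44 reads in any library.

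*Hmga2*, at chr10:120361275-120476469, was lower than its paralog by a wide margin. Its levels were 9.24, 15.1 and 24.7 RPKM in *Myc*; sg*Trp53* cells and 2.00, 24.9 and 10.6 RPKM in *Myc*; sg*Kmt2c* cells. sg*Kmt2c* line 2 was the highest of all and sg*Kmt2c* line 1 the lowest, at 35 reads. The ratio between them was 12.5. The fold change was -0.74 on the log2 scale (interval -2.62 to 1.14, adjusted p = 0.779 from limma). Without sg*Kmt2c* line 1 it was 0.10, so the sign of the estimate rested on that line. *Hmga2* made up 2.57% of the summed *Hmga1* and *Hmga2* level in that line and 4.55% to 12.1% in the other 5.

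Among 9 other high mobility group genes, all tested, none passed the adjusted threshold, and their median log2 fold change was -0.43 against -0.09 over all genes. Without sg*Kmt2c* line 1 these medians were -0.10 and -0.04. The lowest estimates were those of *Hmgn3*, a nucleosome binding protein (-1.43), and *Hmgb2*, a chromatin protein of dividing cells (-0.72). The highest were those of *Hmgn5* and *Hmg20b* (0.20 each). *Hmgn3*, at 9.80 to 47.6 RPKM in 5 lines, had no read in sg*Kmt2c* line 1, and without that line its estimate was 0.07 and that of *Hmg20b* was -0.10.

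*Lin28b*, at chr10:45376620-45470201, was low where it was found and nearly absent from 2 lines, 1 of each genotype. In the sg*Trp53* lines it had 60, 1 and 33 reads, or 1.82, 0.0348 and 0.887 RPKM. In the sg*Kmt2c* lines it had 0, 40 and 36 reads, or 0, 2.01 and 1.56 RPKM. The count of 0 in sg*Kmt2c* line 1 allows a level of up to 0.118 RPKM (3 reads, for counting error only), which is below the counting interval of the 4 lines that expressed it. The log2 fold change was 0.16 (interval -1.20 to 1.52, adjusted p = 0.937 from limma). It was 0.65 without sg*Kmt2c* line 1, and its sign changed under 5 of 17 other settings. Its relative *Lin28a* was not detected, as given above.

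The transcripts of proteins that work with or after LIN28 were measured in all lines. Of 15 genes of let-7 processing, 14 were tested and none passed the adjusted threshold, with 12 estimates below 0, 2 above, and a median of -0.34. Without sg*Kmt2c* line 1 the median was -0.13, with 10 below and 4 above. *Trim71*, a ubiquitin ligase of early embryos that is itself a let-7 target, was at 7.66, 3.48 and 4.59 RPKM in *Myc*; sg*Trp53* cells and at 2.27, 3.58 and 0.476 RPKM in *Myc*; sg*Kmt2c* cells (-1.10, adjusted p = 0.597). *Msi2*, an RNA-binding protein, had the next lowest estimate (-0.58). *Dis3l2*, the exonuclease that degrades let-7 precursors tagged by the LIN28 pathway, had the highest (0.37, adjusted p = 0.651). Its lines did not overlap, with 12.7, 16.8 and 16.0 RPKM against 18.4, 22.2 and 18.8. This held for 3 of the 14 tested genes of the list and for 16.2% of all genes tested. The others were *Dgcr8* and *Ago1*, named after their values were seen, and both were lower in *Myc*; sg*Kmt2c* cells. *Zcchc6*, an enzyme that adds uridine to RNA ends, had the next highest estimate after *Dis3l2* (0.20). All adjusted p-values of these lists come from the same limma fit.

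A list of 25 let-7 target genes other than the members gave 20 that could be tested, with a median log2 fold change of 0.04 (-0.0069 without sg*Kmt2c* line 1). *Igf2*, a fetal growth factor, was lower, and it is described with the IGF2BP genes. *Ccnd2* and *Nras*, a cyclin and a small GTPase, had the lowest estimates among the others (-1.07 and -0.86), and *Ccnd1* and *Hras* the highest (0.58 each). None of these 4 passed the threshold (adjusted p = 0.286 for *Nras*, 0.800 or more for *Ccnd2* and *Ccnd1*, 0.669 for *Hras*). Not every gene tested had a 3′ untranslated region listed by GENCODE. Among those that did, genes with no seed match had a median log2 fold change of -0.09 (9039 genes). The median was -0.09 with 1 match (923 genes), -0.14 with 2 matches (108 genes) and -0.21 with 3 or more (18 genes). The last group includes the members *Hmga2* (-0.74), *Igf2bp1* (-0.84) and *Lin28b* (0.16). These medians were not tested, were not recomputed without sg*Kmt2c* line 1, and take no account of the length of the region.

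The IGF2BP genes were all expressed, but in proportions that differed from line to line. *Igf2bp3*, at chr6:49085221-49214954, was at 19.5, 12.8 and 16.3 RPKM in *Myc*; sg*Trp53* cells (mean 16.2 ± 3.36, SD, n = 3). It was at 0.195, 9.80 and 5.22 RPKM in *Myc*; sg*Kmt2c* cells (mean 5.07 ± 4.81, SD, n = 3). Every sg*Trp53* line was above every sg*Kmt2c* line, and sg*Kmt2c* line 1, with 4 reads, was lower than the next line by a ratio of 26.7. The log2 fold change was -1.97 (standard error 0.777, 95% interval -3.83 to -0.12). The unadjusted p-value was 0.0404 and the adjusted p-value 0.569 in limma. The exact two-sided permutation test gave p = 0.1, the smallest that 3 lines against 3 allow. Without sg*Kmt2c* line 1 the log2 fold change was -1.05 and the adjusted p-value 0.441, and over all 17 other settings it lay between -2.84 and -1.05, always below 0. *Malsu1* overlaps the gene and had at most 109 reads in any library.

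*Igf2bp1*, at chr11:95957163-96005940, showed another order of lines. It was at 7.61, 7.04 and 15.2 RPKM in *Myc*; sg*Trp53* cells and at 11.8, 10.3 and 0.335 RPKM in *Myc*; sg*Kmt2c* cells. Here sg*Kmt2c* line 3 was the one that stood apart, with 12 reads against 314 to 875 in the other 5 lines. sg*Kmt2c* line 1, which nearly lacked *Igf2bp3*, had the second highest *Igf2bp1*. The log2 fold change was -0.84 (interval -2.95 to 1.26, adjusted p = 0.777 from limma). It was 0.21 without sg*Kmt2c* line 3 and -1.42 without sg*Kmt2c* line 1.

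*Igf2bp2*, at chr16:22059009-22163299, was at 4.50, 33.4 and 26.9 RPKM in *Myc*; sg*Trp53* cells and at 8.98, 16.0 and 1.14 RPKM in *Myc*; sg*Kmt2c* cells. It was highest in sg*Trp53* line 2 and lowest in sg*Kmt2c* line 3, a ratio of 29.3. The log2 fold change was -1.29 (interval -3.61 to 1.03, adjusted p = 0.719 from limma) and was -0.42 without sg*Kmt2c* line 3 and -1.53 without sg*Kmt2c* line 1. The summed level of 9 fibroblast markers was also highest in sg*Trp53* line 2, at 3013 CPM (reads scaled to library size but not to length), and was 711 in sg*Trp53* line 3 and 41.5 in sg*Trp53* line 1. In the sg*Kmt2c* lines the sum was 1.49, 522 and 385, with 7 of the 9 markers at 0 reads in line 1. In sg*Trp53* line 2, 13679 of the 16004 marker reads came from *Col3a1*, and without that gene the sum was 438 CPM there and 640 CPM in sg*Trp53* line 3, so the place of line 2 rested on 1 gene. The part of such cells in the *Igf2bp2* and *Hmga2* values was not tested, and in bulk RNA fewer cells of a type cannot be told apart from less RNA per cell.

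**Figure D2:**
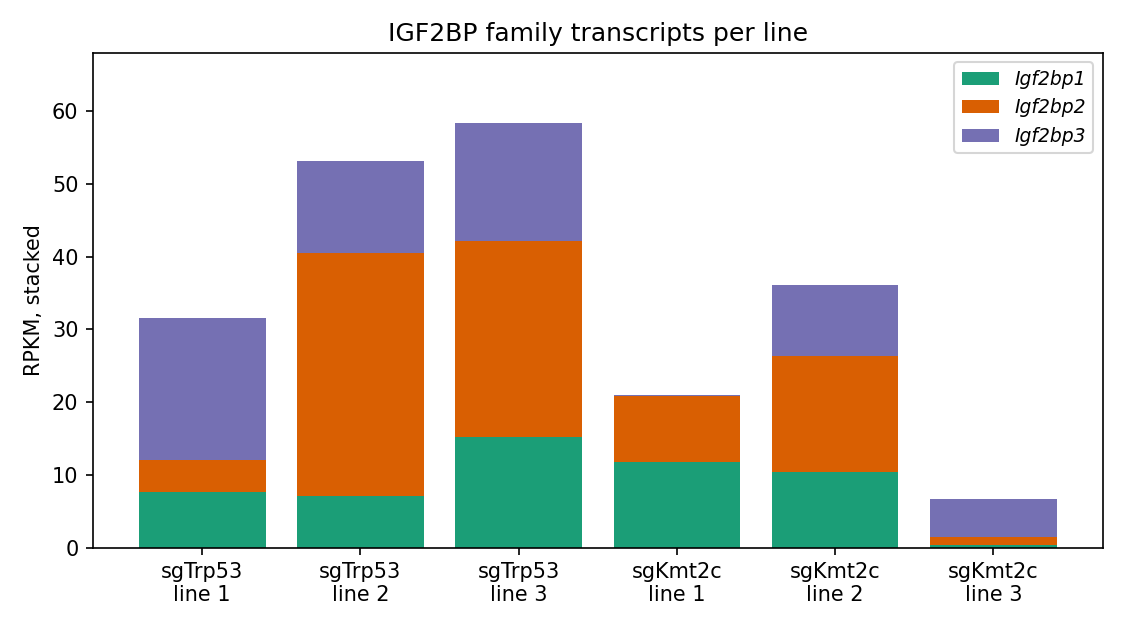
RPKM of *Igf2bp1*, *Igf2bp2* and *Igf2bp3* stacked for each of the 6 lines, with no error bars since each line gave a single library. The sum ranges from 6.70 RPKM in sg*Kmt2c* line 3, mostly *Igf2bp3*, to 58.4 RPKM in sg*Trp53* line 3, and sg*Kmt2c* line 1 has almost no *Igf2bp3*.

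Added together, the IGF2BP transcripts came to 31.6, 53.2 and 58.4 RPKM in *Myc*; sg*Trp53* cells and 21.0, 36.1 and 6.70 RPKM in *Myc*; sg*Kmt2c* cells. The means were 47.7 ± 14.2 and 21.3 ± 14.7 RPKM (SD, n = 3 lines each). The highest sg*Kmt2c* line overlapped with the lowest sg*Trp53* line, and the exact two-sided permutation test gave p = 0.2. sg*Kmt2c* lines 2 and 3 alone averaged 21.4 ± 20.8 RPKM (SD, n = 2). The leading paralog was *Igf2bp3* in sg*Trp53* line 1 (61.7% of the sum) and in sg*Kmt2c* line 3 (78.0%). It was *Igf2bp2* in sg*Trp53* lines 2 and 3 and in sg*Kmt2c* line 2 (62.8%, 46.2% and 44.3%). *Igf2bp1* led in sg*Kmt2c* line 1 alone, with 56.3%, while *Igf2bp3* made up 0.931% there. No line was without all 3 transcripts.

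A list of 18 genes joined RNAs that IGF2BP proteins bind with mRNAs of their partner proteins, such as *Ybx1* and *Elavl1*. All were tested, and 1 passed the adjusted threshold. This was *Igf2*, the mRNA for which the family is named, at 14.0, 27.7 and 12.0 RPKM in *Myc*; sg*Trp53* cells and 0, 0 and 0.946 RPKM in *Myc*; sg*Kmt2c* cells. It fell by 3.83 on the log2 scale (adjusted p = 0.0494 from limma). Under the 17 other settings the log2 fold change lay between -7.25 and -3.48 with an unadjusted p-value of at most 0.0012. The adjusted p-value lay between 0.0335 and 0.302 and was above 0.05 in all but 3 of them (-3.67 and 0.104 without sg*Kmt2c* line 1). *H19*, the noncoding RNA that neighbours *Igf2*, followed another order, with 7.53, 18.2 and 4.32 RPKM against 0.186, 0.712 and 46.9 RPKM, and its genotypes overlapped. *Myc*, supplied by the transposon and also present in the mouse genome, lay at 47.1 to 98.1 RPKM and at 57.0 to 90.9 RPKM in the respective genotypes (adjusted p = 0.816). *Mapk4* had the lowest estimate after *Igf2* (-1.36), and *Ptgs2*, which encodes a prostaglandin synthase, had the highest (2.29). Neither passed the threshold. The median of the list, partner genes included, was -0.07, and 0.06 without sg*Kmt2c* line 1.

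**Figure D3:**
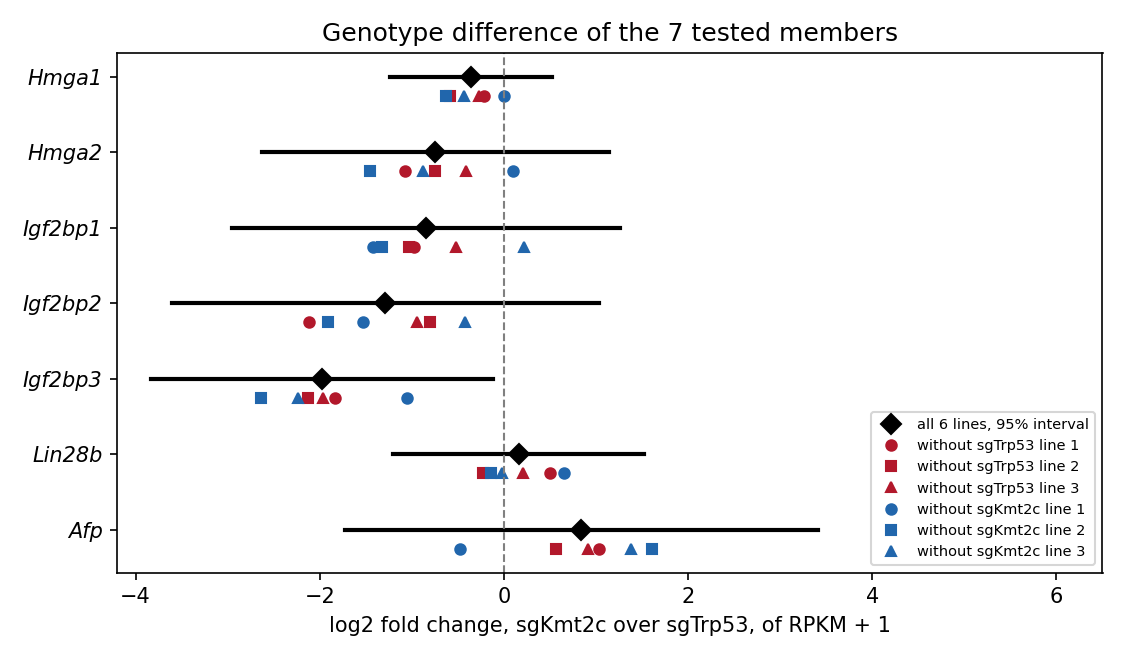
Log2 fold change of the *Myc*; sg*Kmt2c* over the *Myc*; sg*Trp53* lines for the 7 tested members on the log2(RPKM + 1) scale, as black diamonds with 95% intervals (limma, n = 3 lines each) and, under each, the estimate without each line in turn. All intervals but that of *Igf2bp3* span 0, and leaving out sg*Kmt2c* line 1 moves *Afp* to -0.47 and *Hmga2* to 0.10.

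*Afp*, at chr5:90490714-90508907, was far higher in 1 line than in the others. In the sg*Trp53* lines it had 18, 3 and 15 reads, or 1.41, 0.270 and 1.04 RPKM. In the sg*Kmt2c* lines it had 190, 1 and 5 reads, or 19.3, 0.130 and 0.561 RPKM. sg*Kmt2c* line 1 exceeded the next line by a ratio of 13.7, and its 95% counting interval, 16.7 to 22.3 RPKM, lay above that of every other line. The log2 fold change was 0.84 (interval -1.73 to 3.41, adjusted p = 0.813 from limma), and it was -0.47 without that line.

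The letters in front of *Afp* are printed because its RNA was highest in the same line as *Hnf4a*, *Foxa2* and *Foxa3*. They cover the 200 bases before the start annotated in RefSeq (GRCm38.p6), chr5:90490514-90490713 on the plus strand. A match to TATAAA, the letters of the TATA box, is in capitals and begins 7 bases before that start.
Afp: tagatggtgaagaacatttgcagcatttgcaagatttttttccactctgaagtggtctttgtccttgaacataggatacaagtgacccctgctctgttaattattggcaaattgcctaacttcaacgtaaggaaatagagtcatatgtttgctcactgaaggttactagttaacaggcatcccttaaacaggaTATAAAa

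Promoter windows of 300 bases, 250 of them before the start, were listed for 8 of the 10 members. Either strand was searched, and the motifs do not overlap each other. TATAAA was found in 13.6% of all 32851 windows, and *Afp* was the only member with it. *Afp* also had the lowest ratio of observed to expected CpG among the members, 0.250 against a median of 0.384 over all windows. *Lin28a* had 0.351 and *Hmga2* 0.544, and the other 5 had 0.708 to 1.09. CACGTG, the E-box that MYC and other factors bind, was found in 7.15% of all windows and in 2 members, *Lin28b* and *Igf2bp3*, whose 200 bases before the start are printed with it in capitals. They lie at chr10:45470202-45470401 and chr6:49214955-49215154, both on the minus strand. A further match in the *Igf2bp3* window lies after the start and is not printed.
Lin28b: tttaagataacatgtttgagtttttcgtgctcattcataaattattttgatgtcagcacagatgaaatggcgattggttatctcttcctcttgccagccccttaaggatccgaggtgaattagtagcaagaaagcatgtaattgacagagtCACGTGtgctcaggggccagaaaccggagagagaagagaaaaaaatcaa
Igf2bp3: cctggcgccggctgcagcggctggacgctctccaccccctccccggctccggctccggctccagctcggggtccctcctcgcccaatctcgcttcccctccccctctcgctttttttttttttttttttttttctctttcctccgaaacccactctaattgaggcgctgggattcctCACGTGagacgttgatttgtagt

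Letters alone do not show that a factor is bound.

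Of 18 listed regulators of *Afp*, 12 were tested and none passed the adjusted threshold (median log2 fold change -0.54, and -0.32 without sg*Kmt2c* line 1). The adult repressors *Zhx2* and *Zbtb20* were expressed in every line. *Zhx2* was at 11.2, 7.56 and 6.30 RPKM in *Myc*; sg*Trp53* cells and 7.52, 3.47 and 4.44 in *Myc*; sg*Kmt2c* cells. *Zbtb20* was at 316, 186 and 158 RPKM and at 238, 102 and 66.9 RPKM in the same order. On its listed length of 563 bases, its level cannot be compared with that of *Zhx2*. The part of either repressor in the *Afp* values was not tested. *Hnf4a*, a nuclear receptor that defines hepatocytes, had the highest estimate (2.47, adjusted p = 0.754, and 0.42 without sg*Kmt2c* line 1) and was at 24.7, 3.49 and 15.8 RPKM against 1186, 0.629 and 170 RPKM. Its listed transcript length is 431 bases, so these levels are not comparable with those of other genes, but the order of the lines does not depend on it. *Foxa2* and *Foxa3*, liver transcription factors named after their values were seen, were at 23.6 and 8.64 RPKM in sg*Kmt2c* line 1 and at most 0.771 RPKM in the other lines. *Foxa1* went the other way, with 0.133 RPKM in sg*Kmt2c* line 1 and 18.1 to 52.5 RPKM elsewhere, and its estimate moved from -0.94 to 0.79 without that line. *Nfib*, a nuclear factor I protein, had the next lowest estimate (-0.84), and *Cebpb*, a factor of the acute phase response, the next highest (0.64).

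Hepatocyte markers as a sum were also highest in that line. The summed level of 9 hepatocyte markers was 35.8 to 79.1 CPM in *Myc*; sg*Trp53* cells. In the sg*Kmt2c* lines it was 5539 in line 1, 3.26 in line 2 and 346 in line 3. Of the 9 markers, 7 were highest in sg*Kmt2c* line 1, and most of the sum came from *Apob*, with 23099 reads. In that line *Apob* stood at 4385 RPKM on a listed length of 1118 bases, *Fgb* at 20.1, *Ttr* at 14.1, *Alb* at 4.36, *Serpina1a* at 2.95, *Apoa1* at 1.44 and *Cps1* at 1.38 RPKM, and *Cyp2e1* had no read. *Fgb* was higher still in sg*Kmt2c* line 3, at 32.5 RPKM. *Alb*, which neighbours *Afp* in the genome and belongs to the same gene family, thus stayed below *Afp* in that line, and lay at 0.644 to 1.60 RPKM in the other 5. *Gc*, the family member that encodes the vitamin D binding protein, was abundant in most lines, with 567, 76.3 and 216 RPKM against 666, 5.12 and 147 RPKM. The median of the 2 tested genes of the family was -0.39, and -1.35 without sg*Kmt2c* line 1. Cholangiocyte markers summed to 4626 CPM in sg*Kmt2c* line 1, led by *Krt19* and *Spp1*, and to 168 to 1574 in the other lines. The part of these cell types in the *Afp* values was not tested.

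**Figure D4:**
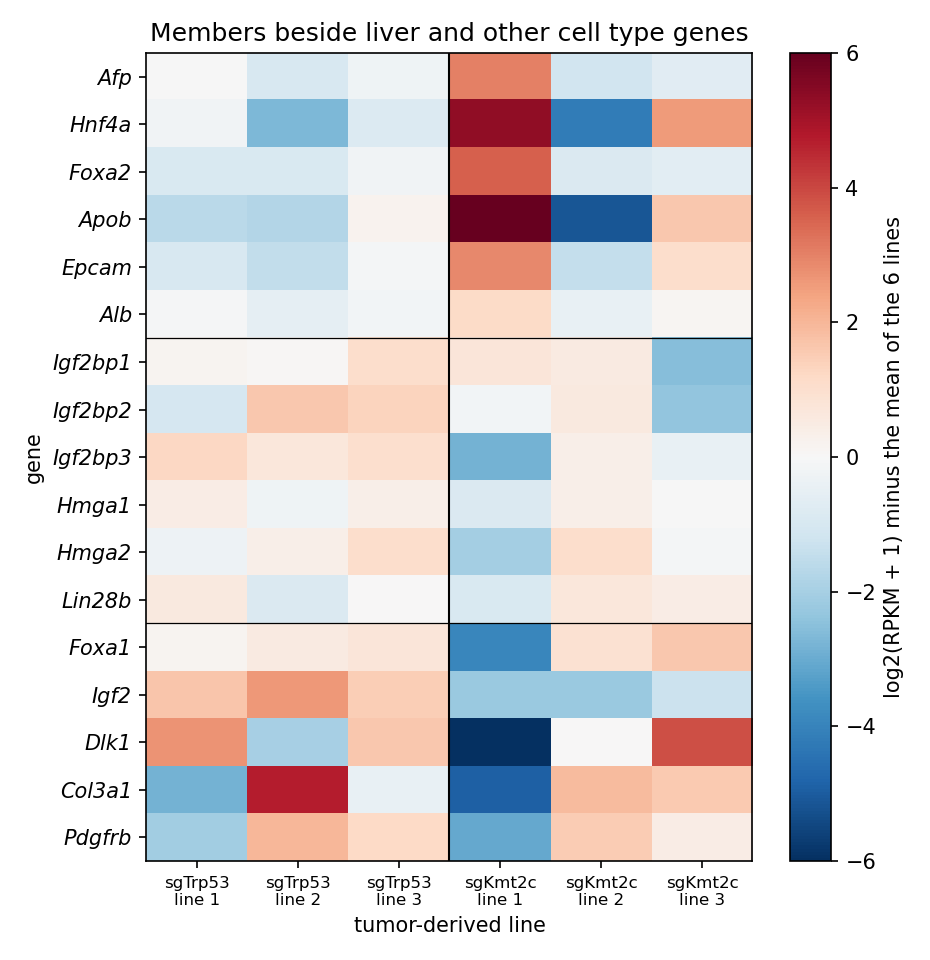
Heatmap of log2(RPKM + 1) minus the mean of the 6 lines, with lines as columns (3 sg*Trp53* left, 3 sg*Kmt2c* right of the black line) and genes as rows. The upper block holds *Afp* with liver and epithelial genes, the middle block the RNA- and DNA-binding members, and the lower block *Foxa1*, *Igf2*, *Dlk1* and 2 fibroblast genes. The rows other than members were selected with their values known, so the color of the upper block follows from that choice. The hepatocyte markers *Fgb* and *Cyp2e1*, which were not highest in sg*Kmt2c* line 1, are not shown. sg*Kmt2c* line 1 is red in the upper block and blue for *Igf2bp3*, *Hmga2*, *Foxa1* and *Dlk1*, and sg*Kmt2c* line 3 is blue for *Igf2bp1* and *Igf2bp2*.

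Other genes of the fetal liver were mixed in direction between the genotypes. Of 22 listed, 16 were tested, 8 with estimates above and 8 below 0, and only *Igf2* passed the adjusted threshold. The median was 0.05, and -0.09 without sg*Kmt2c* line 1. Such genotype estimates do not show which genes share the line pattern of *Afp*. By line, and named after their values were seen, *Krt19*, *Hhex*, *Golm1* and *Sox4* were also highest in sg*Kmt2c* line 1. *Peg10* and *Cd24a* were lowest in that line, and *Igf2* had no read there. *Dlk1*, a surface protein of hepatoblasts, was at 487, 17.4 and 228 RPKM in *Myc*; sg*Trp53* cells and at 0, 73.9 and 1077 RPKM in *Myc*; sg*Kmt2c* cells, so the line with the most *Afp* had no *Dlk1* read. The *Dlk1* estimate was -1.56, and 1.16 without that line. *Epcam*, an epithelial adhesion protein of liver progenitors, had the highest estimate (1.69, adjusted p = 0.675) and was at 27.1 RPKM in sg*Kmt2c* line 1 and at most 6.88 elsewhere. *Tbx3*, a factor of hepatoblast growth, was next (0.80) and was highest in sg*Kmt2c* line 2 with 10.4 RPKM.

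*Gpc3*, at chrX:52272426-52613950, was not detected above a few reads. It had 2, 1 and 4 reads in *Myc*; sg*Trp53* cells (0.148, 0.0848 and 0.262 RPKM) and none in *Myc*; sg*Kmt2c* cells. Every sg*Trp53* line was above every sg*Kmt2c* line (p = 0.1 in the exact two-sided permutation test, the smallest that 3 lines against 3 allow). Such separation held for 16.2% of all genes tested, a set without *Gpc3*. Counts of 0 in the sg*Kmt2c* lines allow up to 0.287 to 0.367 RPKM (3 reads), which is above every sg*Trp53* value. Whether the genotypes differ in level cannot be settled from so few reads. Of 19 genes of glypicans, other heparan sulfate carriers and their modifying enzymes, 16 were tested and none passed the adjusted threshold (median -0.12, and 0.07 without sg*Kmt2c* line 1). *Gpc4*, the neighbour of *Gpc3* on the X chromosome, was at 1.24, 0.638 and 3.78 RPKM in *Myc*; sg*Trp53* cells and at 0, 0.102 and 0.882 RPKM in *Myc*; sg*Kmt2c* cells. The carrier with the highest estimate was syndecan *Sdc1*, at 341, 423 and 559 RPKM against 1692, 1361 and 958 RPKM, levels inflated by a listed length of 342 bases (log2 fold change 1.59, adjusted p = 0.215 from limma). *Sulf2*, an enzyme that trims sulfate from heparan sulfate, was at 2.54, 26.9 and 7.22 RPKM against 32.4, 58.2 and 42.2 RPKM (2.24, adjusted p = 0.489). In both genes the genotypes did not overlap. The same held in the other direction for *Ndst1*, a sulfotransferase named after its values were seen, at 44.2, 56.8 and 52.7 RPKM against 23.4, 26.6 and 37.4 RPKM (-0.81, adjusted p = 0.431 from limma). *Sdc2* and *Hs6st2*, another syndecan and a sulfotransferase, had the lowest estimates (-1.05 and -0.99).

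*Sall4*, at chr2:168748332-168767943, had a single read in all 6 libraries, in sg*Trp53* line 3. Its listed transcript length of 328 bases makes that read worth 0.442 RPKM, and 3 reads would be 1.33 to 2.48 RPKM, so the limit is a loose one. The related *Sall1* and *Sall2* were measured in every line. *Sall2* was at 4.81, 10.7 and 7.45 RPKM in *Myc*; sg*Trp53* cells and at 1.47, 4.26 and 2.99 RPKM in *Myc*; sg*Kmt2c* cells, without overlap but with an adjusted p-value of 0.517 (limma). *Sall1* had the highest estimate of its list (0.42). The nucleosome remodeling and deacetylase (NuRD) complex, a partner of SALL4, was represented by *Rbbp4*, with the next lowest estimate (-0.81), and *Mbd3*, with the next highest (0.23). None of the 15 tested genes of this list passed the threshold, and the median was -0.02 with and without sg*Kmt2c* line 1. *Nanog*, *Utf1* and *Tdgf1*, genes of pluripotent cells, together reached at most 0.815 CPM in any line.

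For each tested member the genes with the most similar pattern over the 6 libraries were sought among the other 11616, by Pearson's r of log2(RPKM + 1). With 6 points that share their depth, high values arise easily, and 39 to 485 genes had an r over 0.9 with each member. The closest were *Wars*, *Me1* and *Slamf9* for *Afp* (0.998, 0.998 and 0.997) and *Dsn1*, *Arl6* and *Arhgap32* for *Igf2bp3* (0.997, 0.996 and 0.992). For *Igf2bp1* they were *Gm9795*, *Ttc8* and *Ifi27* (0.992, 0.976 and 0.967), and for *Igf2bp2* they were *Stk36*, *Soga1* and *Saraf* (0.991, 0.988 and 0.988). For *Lin28b* they were *Gm9821*, *Snd1* and *Gne* (0.995, 0.991 and 0.991). For *Hmga1* they were *Gm12940*, *Rad18* and *Zfp273* (0.991, 0.990 and 0.986), and for *Hmga2* they were *Zbtb1*, *Rbbp5* and *Gna12* (0.995, 0.992 and 0.992). No member was among the 3 closest genes of another member.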

How the data were processed

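RNA-seq of 6 tumor-derived lines, 3 of each genotype, was analysed. The members and gene lists were chosen with earlier results of these data known. Per the labels and the methods, the authors trimmed reads with Trimmomatic, mapped them with STAR (GRCm38), used HTSeq for gene counts and compared genotypes with DESeq2 1.8.2. They deposited RPKM values in a table of 21065 rows, of which 209 had none. Its 6 columns of other samples were not used. From the authors' deposited comparison only the mean normalized count, a coverage signal over all its samples, was used, and its fold changes and p-values were not. RPKM times transcript length gave whole reads for 100% of the values checked (within 0.01 read). Between replicates chi-square per gene was 28.9 to 83.1, well above sampling noise.

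limma 3.58.1 in R 4.3.3 (eBayes with trend) was fitted to log2(RPKM + 1) over 11617 genes with RPKM of at least 1 in at least 3 libraries. The model had a genotype term, with Benjamini-Hochberg adjustment. A run on simulated reads checked the code only, since their spread was set by hand and not taken from these lines. Fold changes of log2(RPKM + 1) understate those of low genes. Alternatives changed the pseudocount, filter, scaling, moderation, test (voom on recovered reads), a replicate block, each line left out, and sg*Kmt2c* lines 2 and 3 averaged. Named were all members, *Trp53*, *Kmt2c*, from each list the genes past the threshold and else the 2 highest and 2 lowest tested, *Zhx2*, *Zbtb20*, *Alb*, *H19*, *Igf2*, *Dlk1*, *Gpc4*, *Dis3l2* and *Myc*, the genes most alike, and exceptions stated as such. Counting intervals are exact Poisson intervals at 95%, and intervals and limits cover counting error only. Whether counting used strand is not given in the sources used here. Promoter and microRNA sequences come from RefSeq (GRCm38.p6), transcript sequences from GENCODE. A few genes and a promoter motif are not reported here.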

Additional observations from a re-analysis of the deposited data

How the results depend on the processing

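No oncofetal gene passed an adjusted p-value of 0.05 under any of the 17 other settings. *Igf2bp2*, *Igf2bp3* and *Hmga1* kept their sign in all of them. Leaving out a single line gave ranges of -0.47 to 1.61 for *Afp*, -1.42 to 0.21 for *Igf2bp1*, -1.46 to 0.10 for *Hmga2* and -0.22 to 0.65 for *Lin28b*, which was also -0.25 with voom and -0.082 with sg*Kmt2c* lines 2 and 3 averaged. The causes of these changes were not tested. Over all genes 15 passed the threshold, against 6 with a pseudocount of 0.1, 5 without a filter, 3 with voom, 0 with lines 2 and 3 averaged, and 0 to 8 with a line left out. A replicate block gave 0 calls (1085 genes at an unadjusted p under 0.05). Once the genotype mean of each gene was subtracted, same-numbered lines correlated by 0.192, 0.399 and 0.0316, and they share only a number. Of the listed genes other than members, 1 (*Igf2*) passed, against 0 with either pseudocount, no filter, the filter on the mean, median-of-ratios, voom, the replicate block, the averaged lines, and 0 to 0 with a line left out. Depth limits *Gpc3*, *Sall4* and *Lin28b*, where a few reads decide the value.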
